A study of Mus musculus with 223 samples.

Results

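The chloride cotransporters of the GABA switch and the kinases that act on them were followed in single cortical interneurons (INs) at 3 ages. The 6 genes were chosen by name from 43629 measured genes. They were the chloride importer Slc12a2 (NKCC1), the chloride exporters Slc12a4 (KCC1), Slc12a5 (KCC2) and Slc12a7 (KCC4), and the kinases Wnk1 and Stk39 (SPAK). All 6 were found in the count tables, and for each of them the pooled level, the share of expressing cells and the balance between Slc12a2 and Slc12a5 were computed.

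The INs came from transgenic mice of both sexes on a C57BL/6 background, in which eGFP was driven by regulatory sequences of Htr3a, a serotonin receptor gene that marks INs derived mainly from the caudal ganglionic eminence. Cells were dissociated from the cortex, sorted for eGFP and captured one by one on a microfluidic instrument (Fluidigm C1). Embryonic day 18 (E18) gave 82 cells, postnatal day 2 (P2) gave 66 and postnatal day 5 (P5) gave 75. The labels place the postnatal cells in 3 types, with 22, 31 and 13 cells at P2 and 34, 19 and 22 cells at P5, and give no type to cells at E18. The labels name no other allele and no treatment, so age and type are the only differences between groups that the labels name. The reporter follows Htr3a regulation and not the Htr3a transcript itself, and the cells studied are those that survived dissociation, which was done with Pronase in the warm at E18 and P2 and at room temperature at P5.

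Each age was 1 pool of animals, so cells are not replicates and no group difference could be tested. Levels are given as read pairs per 1e6 mapped pairs (RPM), pooled over the cells of a group, with exact 95% Poisson intervals, and shares of cells above 10 RPM with exact 95% Clopper-Pearson intervals. Where 0 cells of a group passed for 1 of the 6 genes, the share that 3 cells would make is given beside the interval for the levels by age and type. Both intervals cover counting error only, since amplified read pairs without molecular identifiers are not independent molecules, and neither covers differences between animals. Mapped pairs per cell ranged from 3707601 to 15840130 (median 9463033). Counts on genes per cell ranged from 1596087 to 11692823. The sample descriptions carry a number of 4 kinds whose meaning is not stated. Cells with the same number are called a library set here. All P2 cells shared a number of their own (set A), while sets B, C and D each held cells of both E18 and P5. P2 and its library set therefore cannot be told apart. Median genes above 10 RPM per cell ran from 1437 in P2 type 3 to 2738 in P5 type 2, and the median share of mapped pairs that fell on genes was 32.1% in P5 type 3 against 55.2% and 55.5% in the other P5 types. No 2 cells had identical counts. The types were drawn by the authors from the same counts, so values by type are descriptions.

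Chloride sets whether the opening of GABA-A receptors depolarises or hyperpolarises a neuron. NKCC1 carries chloride into the cell together with sodium and potassium, and the KCC family carries chloride out together with potassium. Immature neurons are known for a high chloride level that rests on NKCC1, and mature neurons for a low level held by KCC2, the only neuron-specific member of the family. WNK kinases activate SPAK and its relative OSR1 (Oxsr1), which phosphorylate NKCC1 to activate it and the KCCs to inhibit them.

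Slc12a5 spans chr2:164960802-164999731 on the plus strand of GRCm38, with exons that cover 7.45 kb. Its transcripts start at separate sites that give proteins with different N-termini, and counts per gene add up both. The sequences before the 2 starts are shown because the level of Slc12a5 below is a sum over them. They are the 250 bases before each RefSeq start (GRCm38.p6), 7142 bases apart, and capitals mark the E-box CACGTG, a sequence that USF proteins bind.

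Slc12a5 start 1, chr2:164960596-164960845, plus strand: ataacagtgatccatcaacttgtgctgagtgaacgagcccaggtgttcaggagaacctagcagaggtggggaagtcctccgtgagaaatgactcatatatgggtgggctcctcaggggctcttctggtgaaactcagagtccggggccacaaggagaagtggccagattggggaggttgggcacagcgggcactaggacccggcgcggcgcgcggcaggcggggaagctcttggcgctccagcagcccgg

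Slc12a5 start 2, chr2:164967738-164967987, plus strand: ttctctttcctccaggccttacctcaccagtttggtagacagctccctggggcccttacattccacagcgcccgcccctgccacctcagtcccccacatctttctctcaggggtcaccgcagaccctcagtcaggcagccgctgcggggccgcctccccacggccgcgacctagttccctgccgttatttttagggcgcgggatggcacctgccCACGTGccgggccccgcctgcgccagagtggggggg

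The E-box lay 30 bases before the downstream start and was not among the bases before the upstream start. On both strands of the 250 bases before a start, CACGTG was present in 1978 of 32851 promoter entries (6.02%), the GC box GGGCGG in 32.7%, and the EGR motif written as GCGTGGGCG or GCGGGGGCG in 3.06%. The downstream sequence held 1 GC box and the upstream sequence none, and neither held the EGR motif. GC content was 61.2% and 67.2%. RefSeq promoter entries matched 5 of the 6 genes, Slc12a2 being without one. These matches describe letters and not binding.

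Slc12a2, the chloride importer, was found above 10 RPM in a minority of INs at every age. It spans chr18:57878678-57946821 on the plus strand. At E18 it passed 10 RPM in 11 of 82 cells (13.4%, interval 6.89 to 22.7), and the values in these cells had a lowest of 20.8, a median of 137 and a highest of 468 RPM. At P2 it passed 10 RPM in 8 of 66 cells (12.1%, 5.38 to 22.5), with 18.8, 38.7 and 392 RPM as the lowest, median and highest. At P5 it passed 10 RPM in 17 of 75 cells (22.7%, 13.8 to 33.8), with 10.4, 84.7 and 901 RPM. The ranges overlapped at all ages, and the median over all cells was 0 RPM at E18 and P2 and 0.0815 RPM at P5.

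The pooled level of Slc12a2 was 24.5 RPM at E18 (24.1 to 24.8), 10.6 RPM at P2 (10.3 to 10.8) and 45.1 RPM at P5 (44.6 to 45.6). On the log2 scale of pooled RPM plus 1, P2 was 1.14 below E18, P5 was 0.85 above E18 and P5 was 1.99 above P2. Few cells carried these sums. The highest cell held 24.3% of the E18 count of Slc12a2, 45.2% at P2 and 28.4% at P5. Without that cell the levels were 18.8, 5.87 and 32.7 RPM, in the same order. The intervals of the 3 shares above 10 RPM overlapped. With at least 1 read pair as the criterion, Slc12a2 was found in 23 of 82 cells at E18 (28%, 18.7 to 39.1), 13 of 66 at P2 (19.7%, 10.9 to 31.3) and 38 of 75 at P5 (50.7%, 38.9 to 62.4). The P2 and P5 intervals did not overlap, but how many of all genes had intervals apart by this criterion was not counted. The cells added by that criterion held at most 10 RPM each. In these pooled values, fewer expressing cells and less RNA per cell are set apart only by the shares.

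Library sets differed in Slc12a2. At P5 its pooled level was 54.96 RPM in set B, 7.25 RPM in set C and 57.4 RPM in set D, and at E18 it was 18.3, 31.2 and 34.5 RPM. Within sets B and D, P5 was above E18 by 1.54 and 0.72 on the log2 scale, and within set C it was below by 1.96, with 9 cells at E18 and 17 at P5. The P5 level in set C was below that of P2. In set C, 1 of the 9 E18 cells and 2 of the 17 P5 cells were above 10 RPM.

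By type, Slc12a2 was at a pooled 5.69, 16.6 and 1.48 RPM in types 1, 2 and 3 at P2 and at 40.7, 59.8 and 38.2 RPM at P5. The P5 level was the higher in each type. The shares of cells above 10 RPM were 9.09%, 16.1% and 7.69% at P2 and 23.5%, 26.3% and 18.2% at P5, and every P5 interval overlapped that of the same type at P2. In P5 type 2 a single cell at 901 RPM held 81.7% of the count, and the level without it was 11.6 RPM. In P2 type 3 a single cell, at 19.0 RPM, held the whole count.

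**Figure D1:**
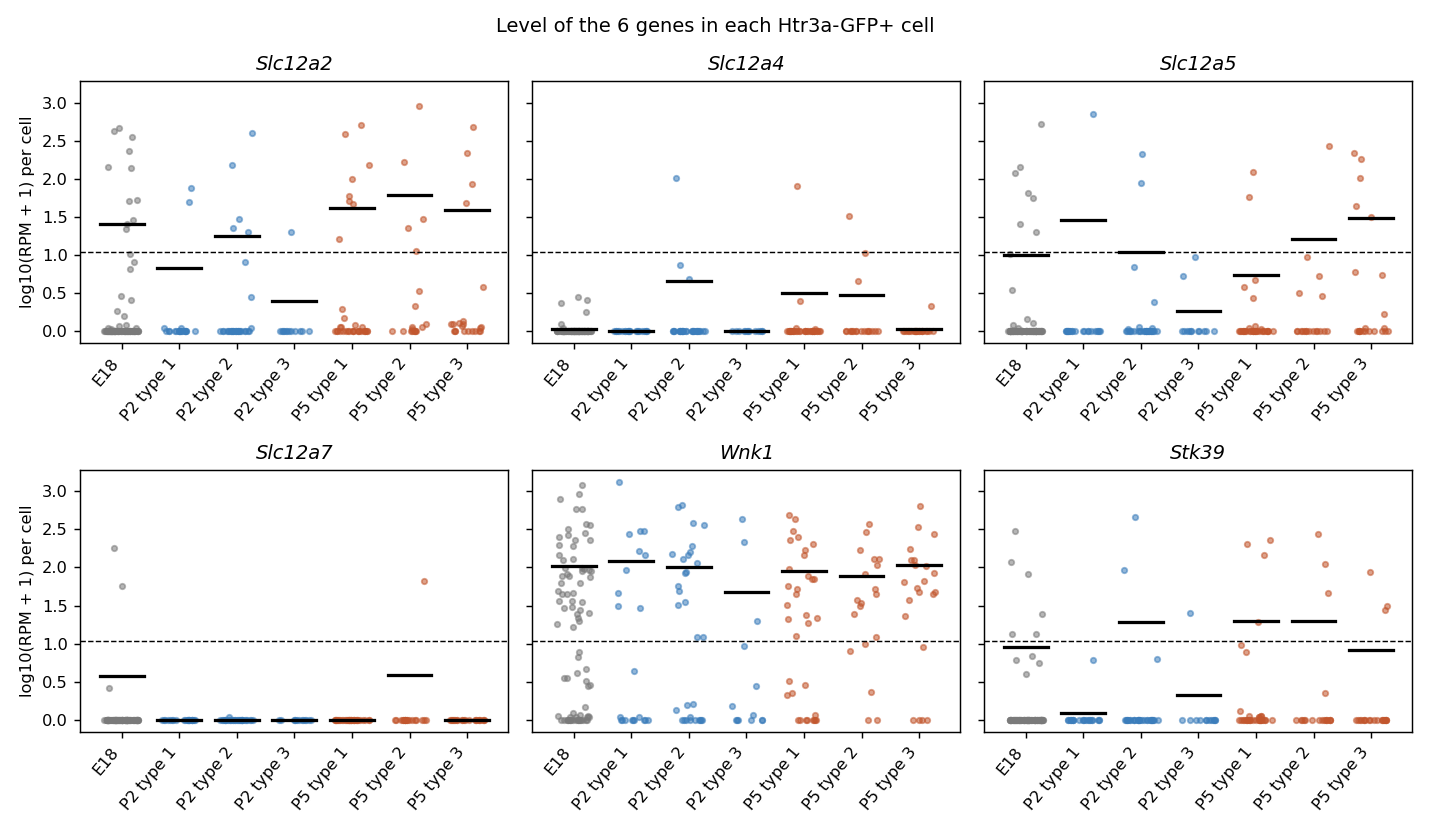
Level of each of the 6 genes in every cell, as log10(RPM + 1), by age and type; each point is a cell, black bars are the pooled RPM of the group on the same scale and the dashed line is 10 RPM. For the cotransporters most cells lie at or near 0 and a few reach 100 to 1000 RPM, while Wnk1 lies above the line in 46 of 82 cells at E18, 31 of 66 at P2 and 52 of 75 at P5.

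Slc12a5, the chloride exporter of mature neurons, was counted in fewer cells than Slc12a2 at each age, though the intervals of the shares overlapped. It passed 10 RPM in 7 of 82 cells at E18 (8.54%, 3.50 to 16.8), 3 of 66 at P2 (4.55%, 0.947 to 12.7) and 8 of 75 at P5 (10.7%, 4.72 to 19.9). The 7 cells at E18 read 524, 143, 117, 64.5, 54.2, 24.3 and 19.3 RPM. The 3 cells at P2 read 700, 208 and 87.9 RPM. The 8 cells at P5 read 269, 215, 183, 123, 102, 57.3, 42.7 and 30.2 RPM. The values overlapped between ages, as did the intervals of the shares, and a change in the share of Slc12a5 cells from E18 to P5 was not tested.

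The pooled level of Slc12a5 was 9.00 RPM at E18 (8.80 to 9.22), 15.3 RPM at P2 (15.0 to 15.7) and 13.6 RPM at P5 (13.3 to 13.9). The log2 difference was 0.71 from E18 to P2, 0.54 from E18 to P5 and -0.17 from P2 to P5, all within 2-fold. The cell at 700 RPM held 66.6% of the P2 count. Without the highest cell of each age the levels were 5.16, 5.20 and 9.90 RPM, and the difference from E18 to P2 was 0.01.

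Within types the pooled level of Slc12a5 moved in both directions. It was 28.2, 10.0 and 0.828 RPM in types 1, 2 and 3 at P2 and 4.46, 15.4 and 29.8 RPM at P5, so the log2 difference from P2 to P5 was -2.42 in type 1, 0.58 in type 2 and 4.08 in type 3. In type 1 the whole P2 count came from the cell at 700 RPM, and every other cell of that group was at 0. Without the highest cell of each group, type 2 stood at 3.07 RPM at P2 and 0.865 RPM at P5, which turned its direction. In P5 type 3, 5 of 22 cells were above 10 RPM (22.7%, 7.82 to 45.4), against 3 of 53 in the other P5 types together (5.66%, 1.18 to 15.7), with intervals that overlapped. In P2 type 3 it passed 10 RPM in 0 of 13 cells (interval 0 to 24.7, and 23.1% for 3 cells). Scaled to the total on genes in place of mapped pairs, the pooled level in P5 type 3 was 87.5 read pairs for every 1e6 on genes and 7 of 22 cells were above 10.

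**Figure D2:**
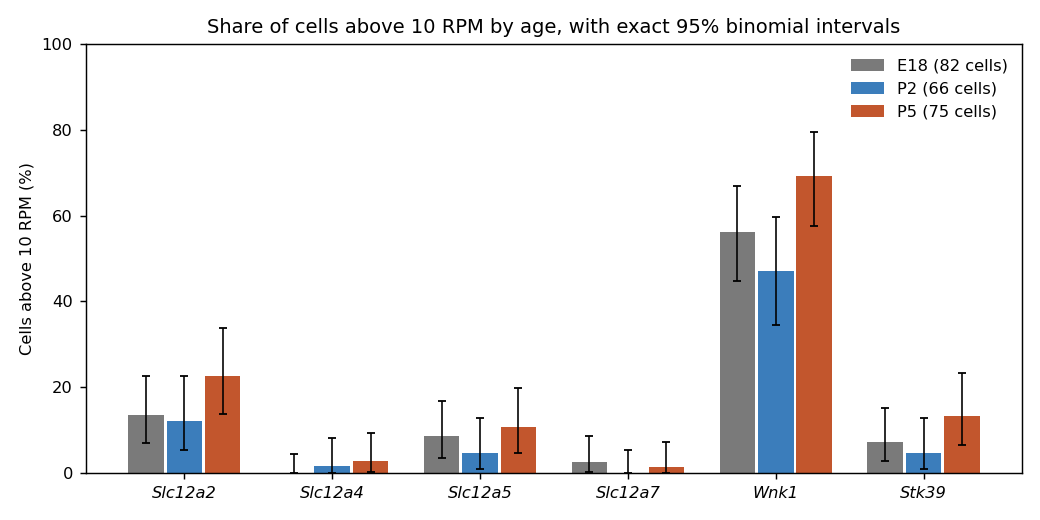
Share of cells above 10 RPM (percent) for each gene at E18 (82 cells), P2 (66 cells) and P5 (75 cells), with exact 95% binomial intervals as error bars. The intervals of the 3 ages overlap for each gene, and Wnk1 reaches the highest share, 69.3% at P5.

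The balance between Slc12a2 and Slc12a5, which speaks for these 2 genes and not for chloride import against export as a whole, was taken per kb of exon, since Slc12a2 exons cover 10.9 kb, as log2 of the Slc12a2 level over the Slc12a5 level with 0.1 RPM per kb added to each. Slc12a2 was at 2.24 RPM per kb at E18, 0.969 at P2 and 4.13 at P5. Slc12a5 was at 1.21, 2.06 and 1.82 RPM per kb. The balance was therefore 0.84 at E18, -1.02 at P2 and 1.14 at P5, so that Slc12a2 was the higher at E18 and P5 and Slc12a5 the higher at P2. Without the highest cell of each gene it was 1.19, -0.30 and 1.12. Relative to E18, the balance was different by -1.86 at P2 and by 0.30 at P5. The first difference was -0.42 without the P2 cell at 700 RPM, which was set aside after its value was seen. The second was 0.96 in library set B, -5.53 in set C, where at E18 no cell passed 10 RPM in Slc12a5, and 0.63 in set D.

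By type, the balance was -2.64, 0.17 and 0.16 in types 1, 2 and 3 at P2 and 2.45, 1.36 and -0.19 at P5. Without the highest cell of each gene it was 1.65, 0.64 and -0.72 at P2 and 2.45, 2.43 and -0.31 at P5. In that calculation Slc12a5 was at 0 in P2 type 1 and Slc12a2 at 0 in P2 type 3. Those 2 values therefore rest on the 0.1 RPM per kb added. With all cells, the P2 type 3 levels of Slc12a2 and Slc12a5, 0.135 and 0.111 RPM per kb, were also close to it. P5 type 3 thus had the lowest balance of the P5 types in both calculations, with Slc12a2 at 3.50 and Slc12a5 at 4.00 RPM per kb. The P2 value of type 1 changed sign with a single cell.

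Cell by cell, neither gene passed 10 RPM in 64 of 82 cells at E18 (78%), 55 of 66 at P2 (83.3%) and 53 of 75 at P5 (70.7%). Both passed in 3 cells at P5, and in 0 cells of E18 or P2. These 3 cells held Slc12a2 and Slc12a5 at 97.8 and 123 RPM in type 1, 901 and 269 RPM in type 2, and 46.6 and 30.2 RPM in type 3. Over all ages, 3 of 36 cells with Slc12a2 above 10 RPM also had Slc12a5 (8.33%, 1.75 to 22.5), against 15 of 187 cells without (8.02%, 4.56 to 12.9), so the shares were close to each other with and without Slc12a2.

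Among the cells with either gene above 10 RPM, Slc12a5 per kb was the higher in 7 of 18 at E18 (38.9%, 17.3 to 64.3), 3 of 11 at P2 (27.3%, 6.02 to 61) and 6 of 22 at P5 (27.3%, 10.7 to 50.2). The intervals overlapped widely. Each age held different cells, so a move of single cells from Slc12a2 to Slc12a5 between E18 and P5 could not be followed. By type at P5, Slc12a5 was the higher in 2 of 9 cells of type 1, 0 of 5 of type 2 (interval 0 to 52.2) and 4 of 8 of type 3.

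**Figure D3:**
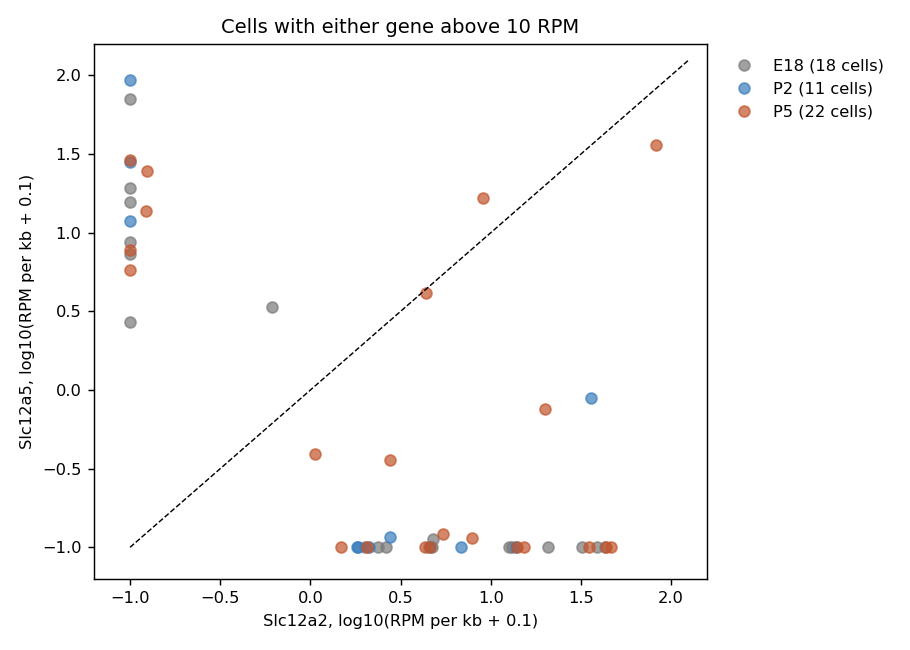
Slc12a2 against Slc12a5 in each cell with either gene above 10 RPM, both as log10(RPM per kb + 0.1), coloured by age; the dashed line marks equal levels. Most points lie along an axis, where the other gene is at or near 0, and 3 P5 cells have both genes above 10 RPM.

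The other exporters among the 6 genes were found in almost no cell. Slc12a4, the housekeeping KCC1, passed 10 RPM in 0 of 82 E18 cells (interval 0 to 4.40, and 3.66% for 3 cells), in 1 of 66 at P2 and in 2 of 75 at P5. Its pooled level was 0.0824, 1.75 and 1.60 RPM, and the cells above 10 RPM read 101 RPM at P2 and 79.6 and 31.6 RPM at P5. It spans chr8:105943590-105966097 on the minus strand, and Gm16156 on the other strand overlaps 8.44% of its exon length, so some of its reads could belong to that gene if strand was not used in counting. Slc12a7, KCC4, lies at chr13:73733094-73816754 on the plus strand. It passed 10 RPM in 2 cells at E18, at 179 and 55.8 RPM, in 0 of 66 at P2 (interval 0 to 5.44, and 4.55% for 3 cells), and in 1 cell at P5, at 65.9 RPM. Its pooled level was 2.77 RPM at E18, 0.00164 RPM at P2, from a single read pair, and 0.760 RPM at P5.

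Other members of the cotransporter family were taken from the list of pathway genes. The kidney importers Slc12a1 (NKCC2) and Slc12a3 (NCC) were above 10 RPM in no cell. Slc12a8, a distant relative in the family, passed 10 RPM in 29.3%, 21.2% and 24% of cells and was at 9.65, 6.80 and 10.5 RPM. Slc12a9 was at 43.6 RPM at P2, of which a single cell held 71.3%, and at 5.33 and 6.59 RPM at E18 and P5.

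**Figure D4:**
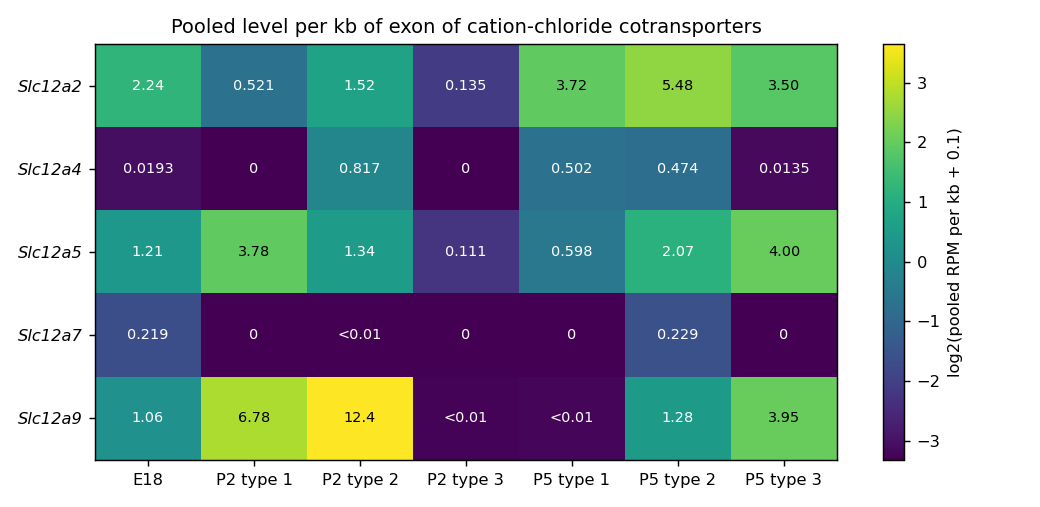
Pooled level per kb of exon (RPM per kb, printed in each box, colour on a log2 scale) of Slc12a2, Slc12a4, Slc12a5, Slc12a7 and Slc12a9 at E18 and in the 3 types at P2 and P5. Slc12a4 and Slc12a7 stay at or below 0.817 in each of the 7 groups, and P2 type 3 does not exceed 0.135 in any of these genes.

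Wnk1, the kinase at the head of the cascade, was the most widely found of the 6 genes. It lies at chr6:119923969-120038672 on the minus strand, and its exons cover 22.8 kb. It passed 10 RPM in 46 of 82 cells at E18 (56.1%, 44.7 to 67), 31 of 66 at P2 (47%, 34.6 to 59.7) and 52 of 75 at P5 (69.3%, 57.6 to 79.5). The cells above 10 RPM had a lowest, median and highest of 15.5, 89.5 and 1193 RPM at E18, of 11.2, 143 and 1337 RPM at P2 and of 11.2, 73.5 and 631 RPM at P5. Pooled levels were 105, 102 and 89.6 RPM, within 0.22 of each other on the log2 scale. At P5 more cells passed 10 RPM than at P2, with a lower median among them, and the intervals of the shares at P2 and P5 met only between 57.6% and 59.7%. From E18 to P5 the log2 difference of Wnk1 was -1.45 within library set B, 1.88 within set C and 0.73 within set D, against -0.22 over all sets.

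By type, Wnk1 passed 10 RPM in 10 of 22, 18 of 31 and 3 of 13 cells at P2 and in 21 of 34, 14 of 19 and 17 of 22 cells at P5. Type 3 went from 23.1% (5.04 to 53.8) to 77.3% (54.6 to 92.2), and its intervals did not overlap, whereas those of types 1 and 2 did. How many of all genes had intervals apart between P2 and P5 in type 3 was not counted. The median change in share over all genes tested there was 8.74 percentage points. The pooled level of Wnk1 in type 3 went from 46.2 to 105.5 RPM, a log2 difference of 1.18. With total counts on genes as library size, the shares were 30.8% (9.09 to 61.4) and 81.8% (59.7 to 94.8), and their intervals overlapped. The median gene tested in type 3 was 0.63 higher at P5, and P2 type 3 cells had the fewest genes above 10 RPM, whose part in the Wnk1 values was not tested.

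Stk39, which encodes SPAK, was found in few cells. It lies at chr2:68210445-68472268 on the minus strand. It passed 10 RPM in 6 of 82 cells at E18 (7.32%, 2.73 to 15.2), 3 of 66 at P2 (4.55%, 0.947 to 12.7) and 10 of 75 at P5 (13.3%, 6.58 to 23.2). The cells above 10 RPM ran from 12.5 to 304 RPM at E18, from 24.5 to 454 RPM at P2 and from 18.2 to 274 RPM at P5. Pooled levels were 8.07, 9.34 and 16.1 RPM, and 3.16, 2.15 and 13.4 RPM without the highest cell of each age. P5 was the highest both ways, by 0.91 on the log2 scale above E18.

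The kinases were compared between cells with and without either cotransporter, pooled over the ages. Wnk1 passed 10 RPM in 22 of 36 cells with Slc12a2 (61.1%, 43.5 to 76.9) and in 107 of 187 without (57.2%, 49.8 to 64.4). For Slc12a5 it was 11 of 18 cells with and 118 of 205 without. Stk39 passed 10 RPM in 5 of 36 cells with Slc12a2 (13.9%, 4.67 to 29.5) and in 14 of 187 without (7.49%, 4.15 to 12.2). With Slc12a5 it was 0 of 18 cells (interval 0 to 18.5), against 19 of 205 without (9.27%, 5.67 to 14.1). Each pair of intervals overlapped. Per kb, Oxsr1, which encodes OSR1, was above Stk39 at each age, at 9.36, 12.7 and 6.30 RPM per kb against 1.63, 1.88 and 3.24.

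Read against all genes, the moves of the 6 genes were not unusual in number. A gene was kept where over 5% of the compared cells had it above 10 RPM, which left 4 of the 6, Slc12a4 and Slc12a7 being below it in the 3 comparisons of ages. From E18 to P2, 0 of the 4 were past 2-fold higher, against 11.5% of 9293 genes, and 1 was past 2-fold lower, Slc12a2, against 21.8%. From E18 to P5 none was past 2-fold in either direction, against 11.9% higher and 19.6% lower of 9808 genes. From P2 to P5, 1 was higher, Slc12a2, against 17.9%, and 0 were lower, against 15.1% of 8989 genes. The median log2 difference of all genes tested was -0.21, -0.17 and 0.04 in the 3 comparisons, and that of the 4 genes 0.07, 0.70 and 0.27. The lower call for Slc12a2 at P2 was just past 2-fold. It fell within 2-fold, from -0.96 to -0.31, in 7 of the 9 alternatives, among them TMM factors (-0.96), DESeq2 size factors (-0.94) and the set without cells that expressed genes of another cell type (-0.71). From E18 to P5, the absence of a gene past 2-fold depended on the scaling. Slc12a2 and Stk39 were at 1.06 and 1.13 with total counts on genes as library size, at 1.02 and 1.06 with TMM factors, at 1.00 and 1.04 with DESeq2 size factors, and at 1.41 and 1.26 without cells with genes of another cell type. Stk39 was at 1.79 without the highest cell of each age.

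Within types the background was wider. From P2 to P5, 32.7% of genes were past 2-fold higher and 19.9% lower in type 1, 25.6% and 24.1% in type 2, and 44.3% and 25% in type 3. Of the 4 genes, 2 were higher (Slc12a2 and Stk39) and 1 lower (Slc12a5) in type 1, where Stk39 passed the filter through its P5 cells alone and so had to be higher, and 1 was higher (Slc12a2) in type 2. In type 3, Slc12a2, Slc12a5, Wnk1 and Stk39 stood 3.99, 4.08, 1.18 and 1.99 higher at P5. Slc12a5 entered that comparison through its P5 cells alone, and Slc12a2 and Stk39 each had reads in 1 P2 cell, so these directions support nothing further. Slc12a2 was 2.64 higher at P5 in type 1 and 1.79 higher in type 2. Without the highest cell of each group, the type 2 levels were 7.23 RPM at P2 and 11.6 RPM at P5, a difference of 0.61 and no longer past 2-fold.

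The other genes of the pathway were taken as a list of 38, in 6 groups. From E18 to P2, 30 passed the filter, with 6 past 2-fold higher and 3 lower. From E18 to P5, 27 passed, with 3 higher and 2 lower, and from P2 to P5, 25 passed, with 4 higher and 3 lower. The share higher at P2 than at E18 was 20%, against 11.5% of all genes, and without the highest cell of each gene and age it was 10%, with 3 of 30 genes, against 9.14%. The other shares (10%, 11.1%, 7.41%, 16% and 12%, in the order given) were near or below the background of their comparison. Of the kinases and adaptors, Wnk2 passed 10 RPM in 45 of 82 cells at E18 (54.9%, 43.5 to 65.9), 19 of 66 at P2 (28.8%, 18.3 to 41.3) and 30 of 75 at P5 (40%, 28.9 to 52). The interval at P2 lay below that at E18, and how many of all genes had intervals apart in this way was not counted. Over all genes tested, the median change in this share was -5.51 percentage points from E18 to P2 and -1.64 from E18 to P5. Wnk3, a WNK kinase of neurons, stood at 27.9, 56.8 and 22.3 RPM, and a single cell held 45.2% of the P2 count. Cab39, the scaffold protein MO25 that activates SPAK, was at 99.3, 77.7 and 41.7 RPM and 1.23 lower at P5 than at E18. Its share of cells above 10 RPM was level, at 28.0%, 27.3% and 28.0%.

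Of the genes that control WNK turnover, Nedd4l, a ubiquitin ligase, passed 10 RPM in 59 of 82 cells at E18 (72%, 60.9 to 81.3), 21 of 66 at P2 (31.8%, 20.9 to 44.4) and 31 of 75 at P5 (41.3%, 30.1 to 53.3). Both postnatal intervals lay below that of E18, but how many of all genes had intervals apart in this way was not counted. The median change in share over all genes tested was -5.51 percentage points from E18 to P2 and -1.64 from E18 to P5. Median genes above 10 RPM per cell were 2496 at E18, 1912 at P2 and 2288 at P5. The pooled level of Nedd4l was 198 RPM at E18 and 95.4 RPM at P5, a log2 difference of -1.04. Klhl3 and Cul3 together form a ligase for WNK kinases. Klhl3 was at 4.43, 18.4 and 0.711 RPM at E18, P2 and P5, and a single cell held 63.4% of its P2 count, with 6.85 RPM without that cell. Cul3 was at 86.3, 59.7 and 82.8 RPM.

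Of the partners and regulators of KCC2, Ntrk2, the receptor of BDNF, passed 10 RPM in 52 of 82 cells at E18 (63.4%, 52 to 73.8), 26 of 66 at P2 (39.4%, 27.6 to 52.2) and 34 of 75 at P5 (45.3%, 33.8 to 57.3). Epb41l1, the cytoskeletal protein 4.1N, was at 72.8, 69.3 and 96.9 RPM, and the phosphatase gene Ppp1ca at 117, 121 and 71.2 RPM. Ppp1ca shares 16.5% of its exon length with other genes. Neto2, which binds KCC2, passed 10 RPM in 3 of 18 cells with Slc12a5 (16.7%, 3.58 to 41.4) and 52 of 205 without (25.4%, 19.6 to 31.9). Usf1, a USF factor, was at 33.6, 21.2 and 49.7 RPM at E18, P2 and P5. Egr4, an early growth response factor known to act on the KCC2 promoter, passed 10 RPM in 2 of 82 cells at E18 and had no read at P2 or P5. Rest, a repressor of neuronal genes, was at 52.4 RPM at P2, of which a single cell held 91.2% (4.64 RPM without it), and at 12.7 and 9.35 RPM at E18 and P5.

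Of the sodium pump, whose gradient drives NKCC1, Atp1b2 was at 9.73, 22.7 and 72.6 RPM and Atp1b3 at 14.3, 10.5 and 41.7 RPM at E18, P2 and P5. Both were past 2-fold higher at P5 than at E18, by 2.78 and 1.48. Atp1b1 was at 45.3, 72.2 and 87.3 RPM, within 2-fold in each comparison of ages. Atp1b1 passed 10 RPM in 29 of 82 cells at E18 (35.4%, 25.1 to 46.7), 18 of 66 at P2 (27.3%, 17 to 39.6) and 38 of 75 at P5 (50.7%, 38.9 to 62.4), and these intervals overlapped. Of the chloride and bicarbonate routes, the bicarbonate carrier Slc4a8 was at 3.23, 18.9 and 11.4 RPM, 2.24 higher at P2, where a single cell held 68% of the count, and 1.55 higher at P5 than at E18, and Clcn3, an endosomal chloride and proton exchanger, was level at 172, 177 and 204 RPM.

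Across the 7 groups, the genes whose log2 pooled level ran most like that of Slc12a2 were Clta, Nudt21, Gdi2, Atrn and Deaf1, with Pearson's r of 0.989, 0.986, 0.983, 0.981 and 0.970. Of 5609 genes compared, 142 had r of at least 0.9. For Slc12a5 they were Yeats2, Rnf181, Egln2, Rmdn1 and Tcof1, with r of 0.969, 0.962, 0.961, 0.959 and 0.956, and 43 of 5610 genes had r of at least 0.9. The 7 points share libraries and depth, and P2 type 3 is the lowest point for both genes.

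The sorted cells were checked against marker genes. At least 1 of 7 IN genes (Dlx1, Dlx2, Dlx5, Dlx6, Gad1, Gad2 and Slc32a1) passed 10 RPM in 78 of 82, 62 of 66 and 75 of 75 cells, and Htr3a itself in 62, 51 and 63. Cells with 2 or more genes of another type's list above 10 RPM were counted. At E18 there were 12, all by the excitatory neuron list, whose 6 genes summed to 134 RPM, 23.1 RPM and 2.67 RPM at E18, P2 and P5. Of the 11 E18 cells with Slc12a2, 4 were among them and held 36.9% of its count. At P5 there were 8, of which 7 by the astrocyte and radial glia list, whose 6 genes summed to 42.8, 62.1 and 546 RPM, and 1 of the 17 Slc12a2 cells was among them, with 0.548% of its count. No cell met this rule for microglia, endothelial cells, erythrocytes or choroid plexus, and the globin genes and the choroid gene Ttr were at 0 throughout. Without all such cells, the balance differed by -1.29 from E18 to P2 and by 0.88 from E18 to P5.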

How the data were processed

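Single Htr3a-GFP+ INs at E18 (82), P2 (66) and P5 (75) were analysed. The authors aligned 2 ends of each fragment to GRCm38 with TopHat2 and made the deposited counts of read pairs per Ensembl gene with HTSeq 0.6.1, and they kept cells that passed their quality filters. Whether strand was used is not given in the sources used here. RPM was the count times the normalization coefficient in the labels, which scales to all mapped pairs. Symbols were found for 42462 of 43629 identifiers. Exon lengths were the union of exons in GENCODE vM21 (GRCm38).

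Counts were pooled by age and by the type in the labels. Poisson and binomial intervals (95%) were computed in Python 3.11.15 with scipy 1.17.1. Folds were log2 of pooled RPM with 1 RPM added, for genes that over 5% of the compared cells had above 10 RPM, and a 2-fold difference was called. The floor at a count of 0 was 3 counts. No test was run, because each age was 1 pool. The code was tested on simulated data. The members and lists were chosen with earlier results of these data known. Named genes were the 6 members, list genes that at least 25% of the cells of an age had above 10 RPM, and the 5 genes most alike to Slc12a2 and to Slc12a5, among genes that reach that share in a group. Other list genes (Slc12a1, Slc12a3, Slc12a9, Oxsr1, Klhl3, Usf1, Egr4, Rest, Atp1b2, Slc4a8) were named after their values were seen. Alternatives used edgeR 4.0.16 and DESeq2 1.42.0 size factors, other thresholds, thinning of each cell to 1596087 counts, single library sets and left-out cells. No sample column was left unused. Some genes of the list are not reported here.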

Additional observations from a re-analysis of the deposited data

Results flagged for a closer look

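The pooled level of Slc12a5 moved in opposite directions between P2 and P5 in the types: the log2 difference was -2.42 in type 1, 0.58 in type 2 and 4.08 in type 3. It was singled out because the direction differed between types. The difference between types was not tested, since each type at each age came from 1 pool. The type 1 value rests on a single P2 cell at 700 RPM, which held 100% of that group's count, and in type 3 the P2 level of 0.828 RPM came from 2 cells with any read. Without the highest cell of each group, the levels at P2 and P5 were 0 and 1.75 RPM in type 1, 3.07 and 0.865 RPM in type 2, and 0.441 and 16.9 RPM in type 3.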

How the results depend on the processing

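The change in the Slc12a2 to Slc12a5 balance from E18 to P2, -1.86, stayed negative in each alternative run and shrank in most. It was -1.19 with 1 RPM per kb added, -0.12 as a mean over cells of log values, -1.52 without the highest cell of each gene and group, -1.29 without cells with genes of another cell type and -1.15 after thinning. It was -0.42 without the P2 cell highest in Slc12a5 and -1.89 with the length of the longest coding transcript, both chosen after seeing the data. The change from E18 to P5, 0.30, was 0.12, -0.08, 0.88 and 0.56 under the mean of log values, without highest cells, without cells with genes of another type and after thinning, and 0.96, -5.53 and 0.63 in library sets B, C and D alone. The cause was not tested. The share of cells with Slc12a5 above Slc12a2 stayed within its binomial interval in each alternative but one, set C at E18, where it was 0 of 1 cell. For the folds of single members, 74 of 84 alternatives moved beyond the counting interval. The only fold called between E18 and the later ages, Slc12a2 to P2, kept its sign in its 9 alternatives. Of all 84, 12 had the opposite sign to the value reported, among them Slc12a2 to P5 in set C (-1.96), Wnk1 to P5 in set C (1.88), Slc12a5 to P2 as a mean of log values (-0.10) and Stk39 to P2 without highest cells (-0.40). For the shares, 21 of 126 moved. No paired analysis was possible because each age was a single pool of animals and the ages share no replicate. Comparisons within sets B, C and D are values without a test. Thinning to the lowest depth left each member's share within its interval.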
